A study of Mus musculus with 21 samples.

Results

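Snhg11, Meg3, Miat, Malat1, Neat1 and Rian are long noncoding RNAs (lncRNAs) of the mouse brain, and the question was which of them differed in brain RNA after the copper chelator trientine. The 6 genes were listed by symbol, and the list was chosen by an earlier result of these data, namely the 7-week counts in which Snhg11 was higher in trientine-treated than in control brain at 7 weeks. Both count tables hold the same 21872 gene symbols, and 1 of the 6 listed genes, Snhg11, has a row in them. Meg3, Miat, Malat1, Neat1 and Rian had no row under their symbol or any synonym that RefSeq gives for them, and were not analysed here. In GENCODE release M21, 21406 (97.9%) of the symbols in the tables match a gene of the class protein-coding, and 12 match a lincRNA. GENCODE M21 puts Snhg11 in its protein-coding class, while RefSeq lists it as a lncRNA. Meg3, Miat, Malat1 and Neat1 are lincRNAs and Rian is a processed transcript in that annotation.

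RNA was sequenced from mouse brain in 21 libraries of stranded poly(A) RNA (TruSeq). At embryonic day 18.5 (E18.5) there were 6 control libraries, whose label gives water as the treatment, and 6 libraries labelled TETA (trientine), with the condition copper-deficient. At 7 weeks after birth there were 5 control (water) and 4 TETA libraries. The labels give no strain, dose, route or length of treatment and no genotype difference between groups. The protocol text names prefrontal cortex of male mice at 7 weeks, and region and sex at E18.5 were not stated. Nothing in the labels says that libraries of a group came from separate animals, so p-values measure the spread between these libraries. The series title names copper in brain development and autism. Libraries held between 14678265 and 24308555 counts at E18.5, and between 17838051 and 24035857 at 7 weeks.

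Small nucleolar RNA (snoRNA) host genes carry snoRNAs, short guides for the chemical modification of other RNAs, in their introns, and the spliced remainder of the host transcript often codes for no known protein. Snhg11 is such a host and is known as an RNA of neurons. Malat1 marks nuclear speckles, bodies rich in splicing factors, and Neat1 is the scaffold of paraspeckles, nuclear bodies built with RNA-binding proteins. Meg3 and Rian are made from the maternal chromosome of the imprinted Dlk1-Dio3 locus, and Miat, also called Gomafu, is a nuclear RNA of neurons.

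Snhg11 (ENSMUSG00000044349.15) lies on the plus strand of chromosome 2 at 158375638 to 158386145 (GRCm38, the assembly also called mm10). Its GENCODE M21 transcripts are 1 protein-coding model of 5 exons and 5864 bases (Snhg11-201), 2 retained-intron models and 2 models marked for nonsense-mediated decay. The union of their exons covers 8521 bases, and a count per gene does not separate spliced from intron-retaining forms. The protein-coding class rests on a short reading frame of 87 codons. It is shown because it accounts for the class of the gene in that annotation, which 97.9% of the symbols share. It starts at position 158376200, is read from GENCODE transcript sequence, and has its start and stop codons in capitals.
Snhg11-201 reading frame: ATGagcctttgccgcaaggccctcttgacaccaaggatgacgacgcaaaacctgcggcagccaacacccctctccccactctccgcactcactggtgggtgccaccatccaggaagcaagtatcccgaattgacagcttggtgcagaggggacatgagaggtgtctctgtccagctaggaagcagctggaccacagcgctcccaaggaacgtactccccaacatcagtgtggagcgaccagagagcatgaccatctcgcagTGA

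Annotated within Snhg11, on the same strand, are 2 snoRNAs of 133 bases, Gm25187 at 158378222 to 158378354 and Gm25129 at 158379534 to 158379666. Both lie in intron 3 of Snhg11-201, and Gm25187 also lies inside exon 2 of 1 of the retained-intron models. Neither had a row, so their own levels were not analysed here. They are shown (GENCODE M21, GRCm38) because they are what makes Snhg11 a host gene. Capitals mark the final 3 bases, ACA, which is the end that H/ACA snoRNAs carry near the 3′ terminus.
Gm25187: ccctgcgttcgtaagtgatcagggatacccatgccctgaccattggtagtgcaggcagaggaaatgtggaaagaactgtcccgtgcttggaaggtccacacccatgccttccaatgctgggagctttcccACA
Gm25129: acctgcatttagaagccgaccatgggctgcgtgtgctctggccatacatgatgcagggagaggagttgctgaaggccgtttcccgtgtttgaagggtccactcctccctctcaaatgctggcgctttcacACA

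The promoter window of Snhg11, 250 bases before to 50 bases after the RefSeq start, is chr2:158375463-158375762 on the plus strand (RefSeq, GRCm38.p6). It is shown because the treatment removes copper and the window can be searched for the metal response element, the site of the metal-responsive factor MTF1. Capitals mark the 2 matches to the core TGCGCNC, 1 on each strand.
Snhg11 promoter: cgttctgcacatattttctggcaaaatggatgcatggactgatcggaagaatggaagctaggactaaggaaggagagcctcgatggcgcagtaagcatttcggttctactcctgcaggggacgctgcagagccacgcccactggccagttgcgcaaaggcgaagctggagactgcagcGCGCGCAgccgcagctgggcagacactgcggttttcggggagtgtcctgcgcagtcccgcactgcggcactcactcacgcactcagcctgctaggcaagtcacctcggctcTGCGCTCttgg

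That core, searched on both strands, had at least 1 match in 15.4% of 32851 promoter windows of the same length, so a window with a match is common. The share of windows with 2 matches was not counted. The alternative core TGCACNC had no match in the Snhg11 window and one in 12.6% of windows. No match was found either for the cAMP response element TGACGTCA (1.79% of windows), the Egr sites GCGTGGGCG (0.612%) and GCGGGGGCG (2.91%), the antioxidant response element core TGACNNNGC (12.4%), the E-box CACGTG (7.15%) or the TATA box TATAAA (13.6%). The window had a GC content of 60%, against a median of 52.7% over all windows, and 21 CpG dinucleotides, against a median of 7.

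Levels of Snhg11 are given as CPM, counts relative to the library total, scaled over all 21 libraries with TMM factors (trimmed mean of M values), which adjust library totals for a shift shared by most genes. Levels of other genes are CPM scaled over the libraries of the contrast they are given with, unless set beside Snhg11. At E18.5 the control libraries 1-1, 1-2, 2-1, 2-2, 3-1 and 3-2 held 265, 358, 291, 276, 307 and 305 CPM. The TETA libraries with the same numbers held 263, 305, 276, 348, 262 and 262 CPM. The ranges overlapped over almost their whole width, and the highest level in each group was that of 1 library, control 1-2 and TETA 2-2. At 7 weeks control libraries 1 to 5 held 963, 841, 891, 904 and 1067 CPM. TETA libraries 1 to 4 held 1415, 1303, 1617 and 1372 CPM. Every TETA library at 7 weeks was above every control library of that age, and the lowest TETA level was 1.22 times the highest control level. At that age the TETA libraries lay wholly above the controls in 6.26% of the genes tested, and this contrast chose Snhg11, so nothing is read from it. All 9 libraries at 7 weeks were above all 12 at E18.5, with the lowest 7-week control level 2.35 times the highest E18.5 level. The 7-week controls lay wholly above the E18.5 controls in 39.7% of genes tested.

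The group means were 300 ± 32.5 CPM (SD, n = 6) in E18.5 controls, 286 ± 34.6 CPM (SD, n = 6) in E18.5 TETA, 933 ± 86.7 CPM (SD, n = 5) in 7-week controls and 1427 ± 135 CPM (SD, n = 4) in 7-week TETA libraries. The order was therefore TETA at E18.5, control at E18.5, control at 7 weeks and TETA at 7 weeks, and the first 2 groups in it did not differ beyond their spread. The spread within a group was alike in relative terms, with coefficients of variation of 10.8% and 12.1% at E18.5 and 9.29% and 9.46% at 7 weeks, controls first. These levels rested on 4220 to 8870 Snhg11 counts per E18.5 library and 15819 to 36050 per 7-week library. There Snhg11 alone took between 0.07896% and 0.15643% of a library.

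**Figure D1:**
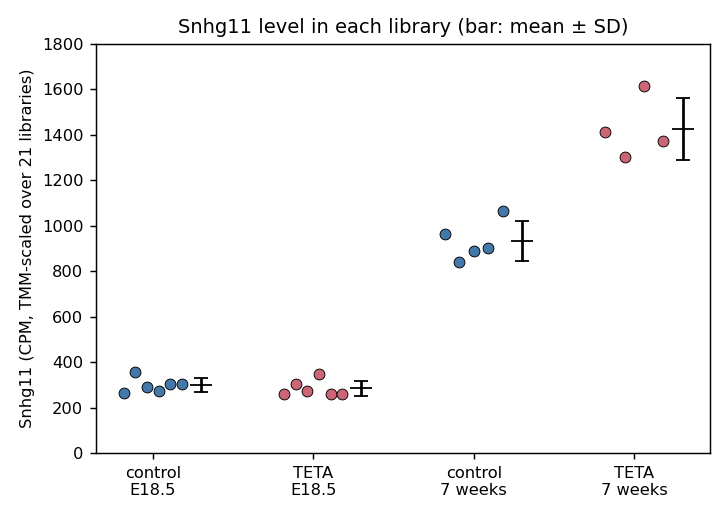
Snhg11 level in CPM (vertical axis, TMM-scaled over the 21 libraries) in each library of the 4 groups, with the group mean and SD as a bar. The E18.5 groups overlap, from 265 to 358 CPM in controls and from 262 to 348 CPM in TETA, and the 4 TETA libraries at 7 weeks, from 1303 to 1617 CPM, lie above the 5 controls of that age, from 841 to 1067 CPM.

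Snhg11 was among the more abundant RNAs in the tables, and more so at 7 weeks. By mean CPM it ranked 531 of 18371 genes in E18.5 controls, 587 in E18.5 TETA, 99 in 7-week controls and 42 in 7-week TETA libraries. Per kilobase of its exon union, the scale on which genes can be compared, its level was 35.3 CPM per kb in E18.5 controls and 110 in 7-week controls, or rank 1203 and 318 of 18092 genes with a length. RefSeq classes 124 symbols in the tables as lncRNA, Snhg11 included, and this set was taken up after it was seen which symbols have a row. Snhg11 made up 31.2% of the summed CPM of that set in E18.5 controls and 59.1% in 7-week controls. In TETA libraries the share was 30.6% at E18.5 and 68.8% at 7 weeks.

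At E18.5 the test found no difference of Snhg11 between TETA and control. The log2 fold change, TETA over control, was -0.07 (SE 0.071, 95% confidence interval -0.22 to 0.08), which is a ratio of 0.953 with an interval from 0.860 to 1.05 (edgeR quasi-likelihood test, adjusted p = 0.996). Of 13794 genes tested at E18.5, 0 (0%) passed an adjusted p of 0.05, with 660 at an unadjusted p under 0.05, and DESeq2 called 10. With the mean level of 13 striatum markers as a covariate the Snhg11 difference turned to 0.04 (SE 0.064), and leaving out each library in turn gave values from -0.14, without TETA 2-2, to -0.01, without control 1-2.

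At 7 weeks Snhg11 was higher in TETA, with a log2 fold change of 0.62 (SE 0.058). On the linear scale the TETA level was 1.54 times the control level. This contrast chose the gene, so it is given as a description and without a test. By log2 fold change Snhg11 ranked 99 of 14240 genes. Of these, 9.96% passed an adjusted p of 0.05, 5.67% higher and 4.28% lower in TETA. Leaving out each of the 9 libraries gave values from 0.56, without TETA 3, to 0.68, without control 5. The difference between the TETA effects at E18.5 and at 7 weeks was not tested.

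Tissue markers, in lists chosen with earlier results of these data known, also differed between the groups at 7 weeks. All 13 of 13 striatum markers fell in TETA, where 4.28% of all genes fell, with a median log2 fold change of -1.34 against 0.0002 over all genes. Their summed level ran from 1061 to 1311 CPM in controls and from 483 to 615 CPM in TETA, and no marker was at 0 in every library of a group. At E18.5 the sum ran from 568 to 637 CPM in controls and from 581 to 608 CPM in TETA. There 0 of 13 passed the test, where 0% of all genes passed. At an unadjusted p under 0.05 were 2 of 13, Adora2a and Rarb, both lower in TETA, against 660 of 13794 genes. The median of the list was -0.03, and 3 of 13 had a log2 fold change above 0. With the mean level of these markers as a covariate, the Snhg11 difference at 7 weeks was 0.24 on the log2 scale (SE 0.15). The groups did not overlap in that mean, from 3.32 to 4.27 log2 CPM in TETA and from 5.29 to 5.64 in controls, so marker level and treatment cannot be told apart at this age.

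Of the markers of other cells at 7 weeks, 1 of 8 general neuron markers rose and 1 fell, 1 of 8 excitatory and 2 of 8 inhibitory neuron markers fell, and 3 of 8 astrocyte markers fell. Of 8 endothelial markers 1 rose and 0 fell, with 5 at an unadjusted p under 0.05, and 2 of 7 tested progenitor and 1 of 6 tested choroid plexus markers fell. For oligodendrocytes and microglia 0 of 8 markers each passed the test in either direction, with 4 and 1 at an unadjusted p under 0.05 and medians of -0.12 and 0.0064, and of 5 tested blood markers 0 did. Over all genes 5.67% rose and 4.28% fell, so counts of 1 in 8 are near the background, and 3413 of 14240 genes had an unadjusted p under 0.05. The summed level of the neuron markers was 9826 to 10020 CPM in controls and 9575 to 10151 CPM in TETA, so these ranges overlapped. The astrocyte sum, from 5824 to 6713 CPM in controls and from 5303 to 5673 CPM in TETA, did not overlap. Nor did the inhibitory neuron sum, from 956 to 999 CPM in controls and from 911 to 946 CPM in TETA. The mean log2 CPM of the inhibitory list did overlap, from 6.16 to 6.25 in controls and from 6.13 to 6.21 in TETA. In that list 3 of 8 markers, Sst, Vip and Lhx6, were higher in TETA. An unadjusted p under 0.05 was found for 3 general neuron, 1 excitatory, 6 inhibitory and 7 astrocyte markers of 8 each. No marker of these lists was at 0 in every library of any of the 4 groups. In bulk RNA, fewer cells of a type and less RNA per cell cannot be told apart. The part of cell content in the Snhg11 difference was not tested.

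Genes tied to the nuclear bodies of the missing members were read from lists of protein-coding genes. The lists were chosen with earlier results of these data known. Their counts and p-values at 7 weeks are therefore a description and no independent test. The first list holds 16 genes whose transcripts are known to be held in the nucleus with introns retained. The counts sum all forms of a gene, so nuclear retention and intron retention were not measured. At 7 weeks 12 of the 16 rose in TETA and 0 fell, with a median log2 fold change of 0.18, where 5.67% of all genes rose and 4.28% fell and the median was 0.0002. Ttc14, a tetratricopeptide repeat gene, went from 95.3 ± 4.35 CPM (SD, n = 5) to 126 ± 3.92 CPM (SD, n = 4), scaled within that age, a log2 fold change of 0.40 (SE 0.039, adjusted p = 1.07e-06). Pnisr, which codes for a nuclear protein rich in serine and arginine, rose by 0.42 (SE 0.045). Nktr, a cyclophilin-related gene, rose by 0.41 (SE 0.046), and Luc7l3, which codes for a splicing factor of the U1 particle, by 0.35 (SE 0.042).

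Among 14 proteins of nuclear speckles and splicing, the compartment of Malat1, 8 rose in TETA at 7 weeks and 0 fell (5.67% and 4.28% of all genes), with a median log2 fold change of 0.13. Srsf7, a serine- and arginine-rich splicing factor, rose by 0.26 (SE 0.040, adjusted p = 0.000284). Srrm2, a scaffold protein of speckles, also rose by 0.26 (SE 0.046, adjusted p = 0.000985). Without TETA 3 the number that rose was 5. Of 14 paraspeckle proteins, the partners of Neat1, 2 rose and 0 fell, with a median of 0.03, and against the 5.67% of all genes that rose this is a small count. They were Sfpq, a paraspeckle RNA-binding protein, at 0.34 (SE 0.033, adjusted p = 1.37e-06), and Cpsf6, a subunit of pre-mRNA cleavage factor I, at 0.22 (SE 0.037, adjusted p = 0.000547). Without control 5 the number was 4.

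With the striatum markers as a covariate, 9 of all 14240 genes passed the test and 0 of the nuclear-retained, speckle and paraspeckle lists did, so the count says little about the lists. Their median log2 fold changes were then 0.12, 0.07 and 0.0012. At E18.5 also 0 genes of these 3 lists passed, and at an unadjusted p under 0.05 there were 1, 2 and 1 genes in that order. Over all genes 0% passed and 660 of 13794 had an unadjusted p under 0.05, so these counts are near the background. The list medians at E18.5 were -0.03, -0.03 and -0.0024, against -0.0027 over all genes.

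**Figure D2:**
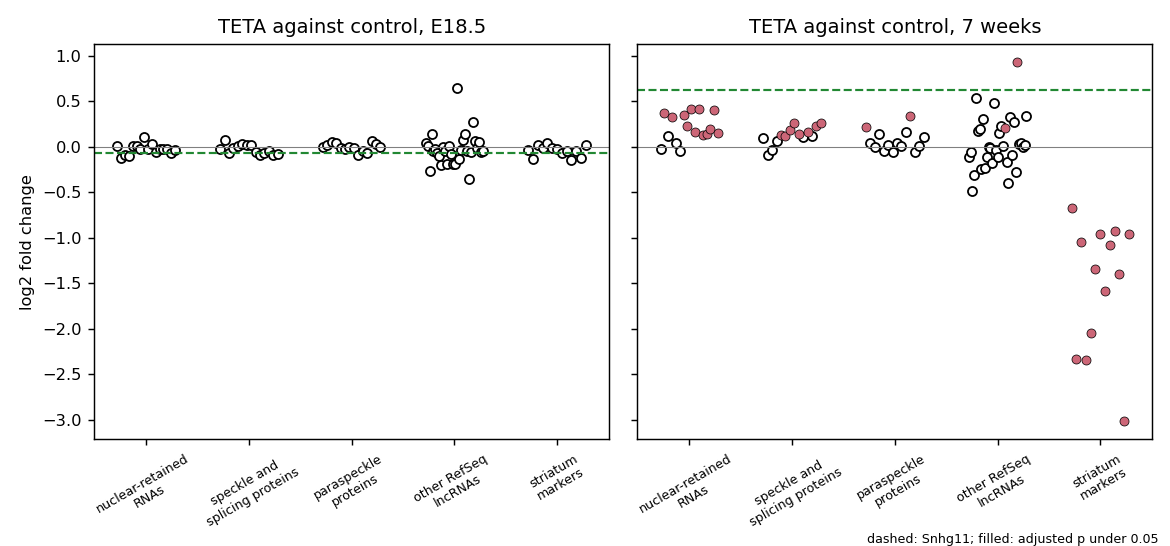
Log2 fold change (TETA over control, vertical axis) of each tested gene of 5 lists at E18.5 and at 7 weeks. Filled points passed an adjusted p of 0.05, and the dashed line is Snhg11, at -0.07 and 0.62. At 7 weeks 12 of 16 nuclear-retained RNAs are filled and above 0 and all 13 striatum markers are filled and below 0. No point is filled at E18.5, where 0% of all genes passed.

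Within the groups at 7 weeks, Snhg11 was high in the libraries in which the gene counts of the nuclear-retained list were high. The mean log2 CPM of that list ran from 6.90 to 7.02 in controls and from 7.14 to 7.22 in TETA, and TETA 3, the library with the highest Snhg11 level, had the highest list level and the lowest striatum marker level. With group means removed, Pearson's r between Snhg11 and the list was 0.92 and Spearman's rho 0.95 over 9 libraries, and r was 0.86 without the 2 libraries farthest from the median. For the speckle proteins r was 0.91 and for the paraspeckle proteins 0.77. Without the 2 farthest libraries these were 0.82 and 0.79. For the striatum markers r was -0.57 and rho -0.27, and r was -0.35 without the 2 farthest libraries. For the general neuron, excitatory neuron, astrocyte and oligodendrocyte markers r was -0.43, -0.39, -0.46 and -0.46, and for the inhibitory neuron markers -0.18. Without the 2 farthest libraries these were -0.07, -0.25, -0.45 and -0.25, and -0.51 for the inhibitory neuron markers. All values of a library share its depth and scaling, so these coefficients are a description.

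At E18.5 the same coefficients, over 12 libraries, were 0.50 for the nuclear-retained RNAs, 0.32 for the speckle proteins, 0.47 for the paraspeckle proteins and 0.69 for the striatum markers. Without the 2 libraries farthest from the median of each list they were 0.07, -0.21, 0.43 and 0.40, so the nuclear-retained and speckle values rested on those libraries and the striatum value in part. Spearman's rho for the striatum markers was 0.47 over the 12 libraries. For the inhibitory neuron markers r was 0.64 and rho 0.74, with r at 0.35 without the 2 farthest libraries. For the general neuron, excitatory neuron, astrocyte and oligodendrocyte markers r lay between -0.06 and 0.19. Without the 2 farthest libraries these were 0.04, 0.47, -0.25 and 0.08 in that order. With the nuclear-retained list as a covariate, an alternative added after the data were seen, the Snhg11 difference at 7 weeks was -0.03 (SE 0.095). Since the groups did not overlap in the list level, that level and treatment cannot be told apart either.

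**Figure D3:**
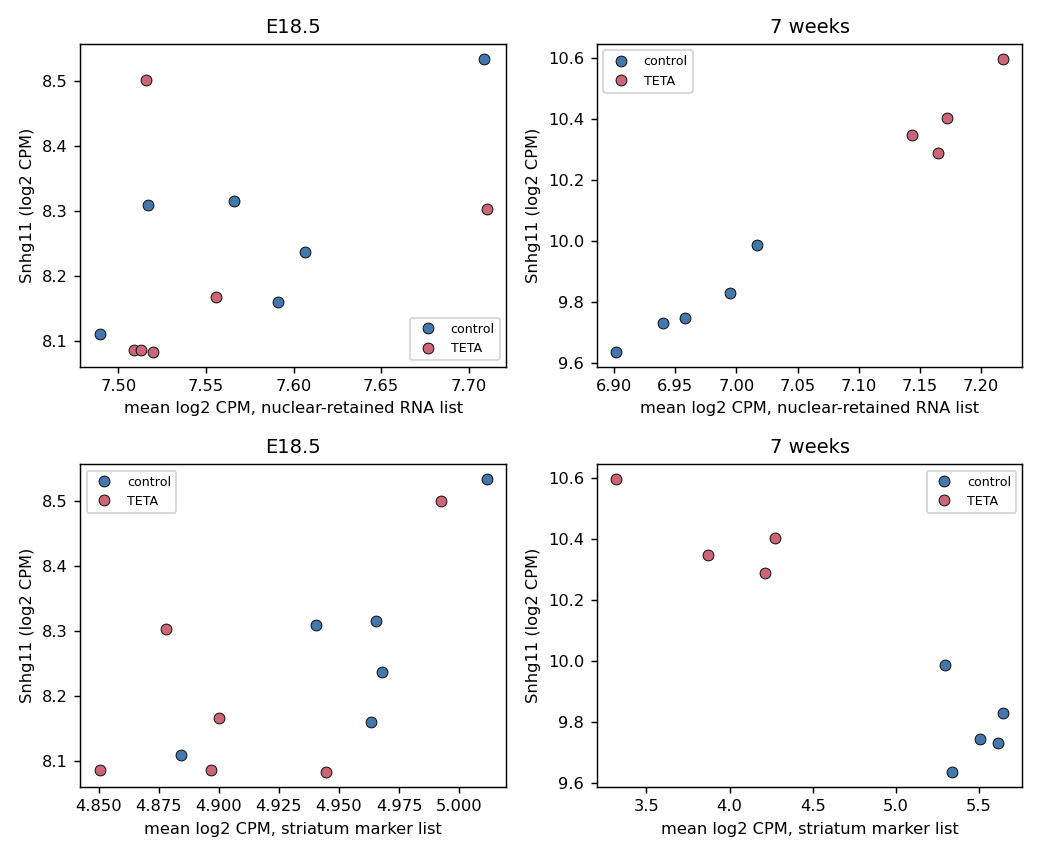
Snhg11 level (log2 CPM, vertical axes) against the mean log2 CPM of the nuclear-retained RNA list (top) and of the striatum markers (bottom) in each library at E18.5 (left) and 7 weeks (right). At 7 weeks the TETA libraries stand apart on both list levels, at 7.14 to 7.22 against 6.90 to 7.02 and at 3.32 to 4.27 against 5.29 to 5.64.

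The genes most like Snhg11 from library to library were named as the 5 with the highest Pearson's r after group means were removed. Over the 9 libraries at 7 weeks they were Ubxn11 (r = 0.97), Ppib, a cyclophilin of the endoplasmic reticulum (0.95), Rgs11, a regulator of G protein signalling (0.94), Chka, a choline kinase (0.94), and Rab26, a small GTPase (0.94). Their r at E18.5 was -0.15, -0.18, 0.03, 0.56 and 0.07. Over the 12 libraries at E18.5 the 5 were Gad2, an enzyme of GABA synthesis (0.89), Lpcat2, an enzyme of phospholipid synthesis (0.88), Rmdn1 (0.87), Zcchc9 (0.86) and Gpr83, a G protein-coupled receptor (0.86). Their r at 7 weeks was -0.27, -0.43, 0.40, -0.19 and -0.89. No gene was in both sets.

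The neighbours of Snhg11 on chromosome 2 were read in the same contrasts. The nearest gene downstream with a row, Ralgapb, which codes for a subunit of a GTPase-activating complex for Ral, starts 34.2 kb from the Snhg11 start. At 7 weeks Ralgapb was at 188 ± 4.49 CPM (SD, n = 5) in controls and 182 ± 1.96 CPM (SD, n = 4) in TETA, with a log2 difference of -0.04 (SE 0.031, adjusted p = 0.409). The nearest upstream gene with a row is Lbp, the lipopolysaccharide-binding protein, whose start lies at -69.1 kb. Lbp fell by 0.61 on the log2 scale in TETA at 7 weeks (SE 0.15, adjusted p = 0.0115), from 3.12 ± 0.378 CPM (SD, n = 5) to 2.02 ± 0.215 CPM (SD, n = 4), and was too low to be tested at E18.5. The next gene on either side, Bpi and Adig, did not exceed 0.0494 and 0.118 CPM in any library and was not tested. With the striatum markers as a covariate Lbp did not pass (adjusted p = 0.988), but only 9 of all 14240 genes did, so this says little about Lbp.

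Over the 8 genes with a row on each side, 13 could be tested at 7 weeks, and 0 rose and 2 fell, against 5.67% and 4.28% of all genes, too few neighbours to set the locus apart from that background. Besides Lbp this was Slc32a1, the vesicular GABA transporter, at -0.31 (SE 0.044), named after its value was seen. At E18.5, 12 were tested and 0 passed, where 0% of all genes passed, and Ralgapb was at -0.0012 (SE 0.045).

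**Figure D4:**
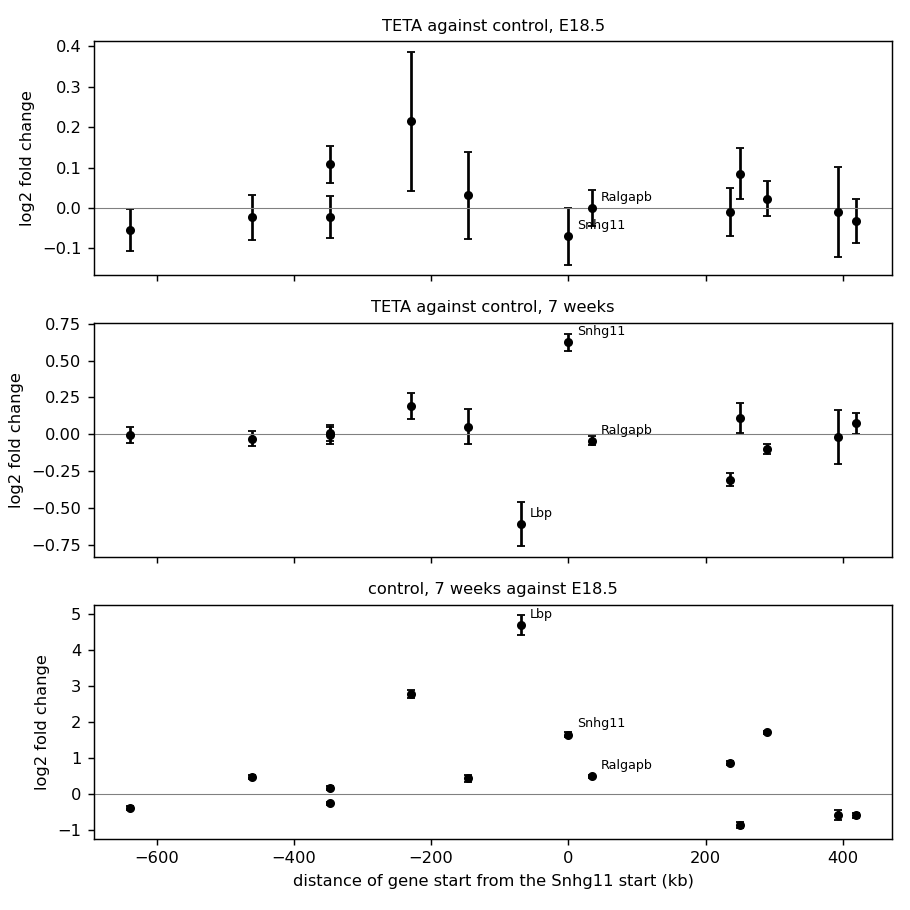
Log2 fold change with its SE (vertical axes) of Snhg11 and its tested neighbours against the distance of each gene's start from the Snhg11 start in kb, for TETA against control at E18.5 and at 7 weeks and for 7-week against E18.5 controls. At 7 weeks Snhg11 is at 0.62, Ralgapb at -0.04 and Lbp at -0.61.

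Of the 123 other RefSeq lncRNAs with a row, 33 had enough counts to be tested at 7 weeks, and 2 rose and 0 fell, with a median log2 fold change of -0.0019. Over all genes 5.67% rose and 4.28% fell, so the number that rose was near the background. They were Gm9925, from 0.600 ± 0.156 CPM (SD, n = 5) to 1.15 ± 0.289 CPM (SD, n = 4), a log2 fold change of 0.93 (SE 0.26, adjusted p = 0.0236), and Gm15446, at 0.21 (SE 0.063, adjusted p = 0.0374). Gm9925 did not pass without control 3, TETA 1, TETA 3 or TETA 4 (adjusted p from 0.054 to 0.0837), and Gm15446 did not without control 2, 3 or 4 or any 1 of the TETA libraries (0.0554 to 0.104). At E18.5, 30 were tested and 0 passed, with 2 at an unadjusted p under 0.05.

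Tug1, a lncRNA first described in retinal development, was the next most abundant of the set at E18.5, at 264 CPM in controls. Its log2 fold change was -0.06 (SE 0.039) at E18.5 and 0.02 (SE 0.033, adjusted p = 0.718) at 7 weeks. Tunar, a lncRNA of neural differentiation, was at 6.37 ± 0.821 CPM (SD, n = 5) in 7-week controls and 8.06 ± 1.03 CPM (SD, n = 4) in TETA, a difference of 0.34 on the log2 scale (SE 0.11) that did not pass (adjusted p = 0.0575). It passed without control 2 (adjusted p = 0.0375) and without TMM factors (0.0445). Of 19 listed snoRNA host genes, Snhg4 was the 1 with a row, and its log2 fold change was 0.05 (SE 0.10) at E18.5 and -0.0064 (SE 0.092) at 7 weeks. Both signs turned with the processing.

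Of the Dlk1-Dio3 locus, home of Meg3 and Rian, 3 coding genes could be tested. At 7 weeks 0 of the 3 passed, where 9.96% of all genes did, so the count says little about the locus. Dio3, the deiodinase that inactivates thyroid hormone, was at 0.998 ± 0.460 CPM (SD, n = 5) in controls and 1.76 ± 0.660 CPM (SD, n = 4) in TETA, 0.82 higher on the log2 scale (SE 0.29, adjusted p = 0.0852). It passed without control 4 (adjusted p = 0.0442) and without TETA 4 (0.0447). Begain, a postsynaptic gene at the edge of the locus, was at 0.07 (SE 0.041), and Dlk1, a Delta-like membrane protein, at -0.02 (SE 0.35).

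Between the ages, Snhg11 rose. The log2 fold change of 7-week over E18.5 controls was 1.65 (SE 0.063, interval 1.52 to 1.78, adjusted p = 1.38e-17, n = 5 and 6), which is a ratio of 3.13 with an interval from 2.86 to 3.43. Of 14375 genes tested, 89.5% passed in either direction, 44% higher and 45.5% lower at 7 weeks, so a call in this contrast sets a gene apart little. By log2 fold change Snhg11 ranked 1994 of these genes. In TETA libraries the same contrast gave 2.33 (SE 0.071). The 7-week controls also enter the contrast that chose Snhg11. The ages come from separate tables and possibly from different dissections, so age, table and tissue cannot be told apart.

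Other lncRNAs changed in both directions. Tug1 fell by 1.21 on the log2 scale (SE 0.041), from 262 ± 16.1 CPM (SD, n = 6) to 113 ± 2.19 CPM (SD, n = 5), and Tunar fell by 2.11 (SE 0.076). Snhg4 rose by 0.67 (SE 0.093), B230217C12Rik by 2.17 (SE 0.047) and 1500009C09Rik by 0.98 (SE 0.047). Of 33 RefSeq lncRNAs tested besides Snhg11, 13 rose and 9 fell, where 44% of all genes rose and 45.5% fell. At 7 weeks the next most abundant after Snhg11 was Rnf227, at 131 CPM in controls.

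The nuclear-body lists were lower at 7 weeks, in a contrast in which 45.5% of all genes fell and 44% rose. Of the 14 paraspeckle proteins 14 fell, with a median log2 fold change of -1.02 against -0.02 over all genes, and Sfpq fell by 1.84 (SE 0.036). Of the 14 speckle and splicing proteins 12 fell and 1 rose, with a median of -0.69, and Srsf1, a serine- and arginine-rich splicing factor, fell by 1.48 (SE 0.037). Of the 16 nuclear-retained RNAs 13 fell and 2 rose, with a median of -0.53. In the imprinted locus Dlk1 fell by 3.08 (SE 0.18) and Dio3 by 1.80 (SE 0.23), and Begain rose by 0.85 (SE 0.038). Next to Snhg11, Ralgapb rose by 0.49 (SE 0.039) and Lbp by 4.69 (SE 0.27).

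Cell markers moved with age too, as 89.5% of all genes did (44% higher and 45.5% lower). Of 8 markers each, 8 oligodendrocyte, 8 microglia and 7 astrocyte markers rose and 8 progenitor markers fell, and the summed oligodendrocyte level went from 64.1 to 75.0 CPM in E18.5 controls to 6854 to 8080 CPM in 7-week controls. Of 8 general neuron markers 5 rose and 3 fell, with a median log2 fold change of 1.87 against -0.02 over all genes. Their summed level went from 6745 to 7006 CPM in E18.5 controls to 9826 to 10020 CPM in 7-week controls. Of 13 striatum markers 10 rose and 2 fell. Of 8 excitatory neuron markers 2 rose and 5 fell, and of 8 inhibitory neuron markers 6 rose and 2 fell. Of 5 tested blood markers 5 fell. The part of cell content in the rise of Snhg11 was not tested.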

How the data were processed

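The listed genes, the gene lists and the tests were chosen with earlier results of these data known. Counts of reads by gene symbol, whole and not normalized, were deposited by the authors in 1 table for each age. The submitters' processing notes name STAR 2.7.1a, featureCounts 2.0.1 and the build mm10; the annotation and the strand setting are not given in the sources used here, so reads of overlapping genes may be shared. In the E18.5 table, 1940 genes at 0 in control 1-1 hold multiples of 11 elsewhere and were divided by 11; Snhg11 was not among them. Counts were filtered (filterByExpr, minimum 10), scaled with TMM and tested with edgeR 4.0.16 (quasi-likelihood, R 4.3.3, limma 3.58.1) within each age, and over controls for the ages; adjusted p is Benjamini-Hochberg over all genes tested, with a threshold of 0.05. SE is the log2 fold change over the root of its F. DESeq2 1.42.0, a floor of 50 mean counts, no filter, no TMM factors, undivided counts, summed libraries, the replicate number as a block, a striatum covariate and leaving out each library were alternatives. Up to 4 genes per list with the smallest p, the 2 nearest neighbours on each side, and the 5 most alike genes were named, with log2 CPM (prior count 2). The fit was tested on simulated data. Annotation was GENCODE M21 and RefSeq. Levels in CPM carry counting error and the spread between libraries.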

Additional observations from a re-analysis of the deposited data

Results flagged for a closer look

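Among 30 groups of libraries examined over 8 measures (Snhg11, Tug1, Tunar, Snhg4, Ralgapb and Lbp levels and the nuclear-retained and striatum list levels), 1 held a library far from the others, where chance marks about 1 in 20 groups. In E18.5 TETA, library 1-2 had the highest mean level of the nuclear-retained RNAs, at 7.71 log2 CPM against a group median of 7.52, and its gap to the next library was 0.768 of the group's range, above the critical value of 0.625. Snhg11 itself had no such library in any of the 4 groups.

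Tug1 moved in opposite directions at the 2 ages in every TETA library, below the control mean at E18.5 and above it at 7 weeks. The mean differences lay 0.0832 apart on the log2 scale, and neither age passed the test. At E18.5 control 1-2 was the highest control, at 8.25 log2 CPM against a lowest control of 8.01, and without it the log2 fold change of Tug1 went from -0.061 to -0.027. The difference between the ages was not tested.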

How the results depend on the processing

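The count of 0 genes at E18.5 was 10 with DESeq2, 2 with libraries summed by first number and 3 with the nuclear-retained covariate, and from 0 to 7 on leaving out each library (7 without TETA 1-2, 3 without control 3-2). The 1418 genes at 7 weeks became 9 with the striatum covariate and 13 with the nuclear-retained one, and from 927 (without TETA 3) to 1392 on leaving out each library; without TMM factors 1003 of 1483 were higher, against 808 of 1418. The 12871 genes between ages stayed within 1.5 times (12686 to 12837 on leaving out a library), but without TMM factors 5672 were higher and 7299 lower and the median of all genes was -0.17. The nuclear-retained covariate, and the striatum covariate at E18.5, were added after the data were seen.

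Snhg11 turned to 0.038 at E18.5 (striatum covariate) and -0.026 at 7 weeks (nuclear-retained covariate) and moved to 0.24 at 7 weeks (striatum covariate). With the nuclear-retained covariate Pnisr was at -0.024, Srrm2 at -0.20, Gm15446 at -0.20, Dio3 at -0.15, Snhg4 at 0.11 and Ralgapb at 0.022 at 7 weeks; with the striatum covariate Dio3 was at -0.0625, Snhg4 at 0.17 and Ralgapb at 0.026. Snhg4 at 7 weeks was at 0.0094 without TMM factors and from -0.052 to 0.037 on leaving out a library, and at E18.5 from -0.026 to 0.095. Ralgapb at E18.5 was 0.0002 with DESeq2 and without the filter, 0.0046 with summed libraries, 0.015 and 0.018 with the striatum and nuclear-retained covariates, and from -0.031 to 0.021 on leaving out a library. The cause of these changes was not tested.

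Libraries with the same replicate number had deviations that correlated by 0.0185 on average at E18.5 (-0.275 to 0.284) and by -0.0504 at 7 weeks (-0.0692 to -0.0295). No pairing by number was seen, though these values cannot exclude it. Likeness between E18.5 libraries of a group that share a first number was not tested. With the replicate block 0 genes passed at E18.5 (719 at an unadjusted p under 0.05) and 1072 at 7 weeks, and Snhg11 was at -0.07 and 0.67. Of the genes named, Gm9925 did not pass under the block (adjusted p = 0.0613). Of the 123 other RefSeq lncRNAs, 33 had enough counts to be tested at 7 weeks, and the part of depth in this was not tested.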
